A study of Mus musculus with 21 samples.

Results

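SLC16A1 clone 1, a clonal line of mouse embryonic stem cells (ESCs), was grown in SL2i and in SL medium, and every gene with enough reads was compared between 2 SL2i libraries and 3 SL libraries of poly(A)-selected RNA. These 5 libraries are among 21 in the series, and 17178 of the 40838 genes in their count table (42.1%) had enough reads to be tested. The label SL is taken to mean serum plus LIF (leukemia inhibitory factor), a cytokine that sustains ESCs, and SL2i the same medium plus inhibitors of the kinases GSK3B and MEK, together called 2i. Slc16a1 encodes MCT1, a transporter of pyruvate and lactate. How the clone was altered, and how long it had been kept with the inhibitors, are not stated in the sources used here.

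For comparison, the same table holds SL2i and SL libraries of SLC16A1 clone 2 and of chr8A, a line read as the control, with 2 libraries in SL2i and 3 in SL for each line. All 6 groups spent 48 h in a DMEM and NB mixture with 10% dialyzed serum and 0.2 mM pyruvate before RNA was taken. Total counts were 9784408 and 10500185 in the SL2i libraries of clone 1, against 18617937, 16647156 and 16969929 in its SL libraries. In all 3 lines the SL2i libraries were the shallower ones (9784408 to 10908368 counts, against 15802072 to 30145771 in SL), so medium and library set cannot be told apart. Each group is 1 line, and p values measure only the spread between libraries within groups, estimated over all 6 groups together, which may be technical. Agreement was weakest between SL chr8A replicates 1 and 3. Their counts gave a chi-square per degree of freedom of 14, against 1.87 to 5.89 for the other pairs within a group. In bulk RNA, fewer cells of a type and less RNA per cell cannot be told apart.

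ESCs in serum and LIF fluctuate between a naive state, which resembles the preimplantation epiblast, and states closer to the formative epiblast after implantation. Inhibition of MEK cuts signaling from FGF receptors to the kinase ERK, which drives cells out of the naive state. Inhibition of GSK3 stabilizes beta-catenin, the effector of Wnt signaling, and relieves repression of naive genes by the factor TCF7L1. Cells in 2i are known for high and even expression of naive transcription factors, low expression of lineage genes and low DNA methylation.

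Between SL2i and SL, 12540 of the 17178 genes passed edgeR's quasi-likelihood test at an adjusted p (Benjamini-Hochberg) under 0.05, which is 73.0% of all genes tested. Of these, 6174 (35.9%) were higher and 6366 (37.1%) lower in SL2i, and 2556 (14.9%) and 3414 (19.9%) differed by at least 2-fold. In 6896 genes (40.1%) both SL2i libraries lay above all 3 SL libraries, and in 7076 (41.2%) below them. The median log2 fold change, SL2i over SL, was -0.003 over all genes, with a median standard error (SE) of 0.120. Reads of a gene with close copies elsewhere in the genome can be counted at another copy, and large rises were more common among genes with many 30-base words in common with another gene, here called shared words. Where the mean log2 CPM reached 3, at least 2-fold rises were found in 15.2% of the 336 genes with 50% or more of shared words, in 16.3% of the 879 genes with 20% to 50% and in 7.47% of the 2156 genes with 5% to 20%, against 7.20% of the 6597 genes with under 5%. Changes of at least 2-fold in either direction were found in 37.2%, 24.5%, 14.8% and 20.4% of these genes, in the same order. Large falls were thus also more common with 50% or more of shared words than with under 5%. Genes with at least 5% of shared words are named below with the percent, and their values are the more uncertain the higher it is.

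Slc16a1 (Entrez gene 20501) was transcribed in both media and was lower in SL2i. It had 122 and 123 CPM in SL2i, against 168, 182 and 162 CPM in SL, where CPM is a count scaled to the size of its library, normalized by TMM. The SL2i libraries lay below all SL libraries, and the log2 fold change was -0.47 ± 0.044 (SE; adjusted p = 7.9e-18, edgeR). The log2 fold change in chr8A was -0.29 ± 0.040. The difference between the lines, -0.18 ± 0.060, passed the same edgeR test (adjusted p = 0.02), a call lost in DESeq2 and when any 1 of 5 libraries was left out, including either SL2i library of clone 1. An edit can leave the mRNA of a gene whose protein is lost, and these levels say nothing of the amount of transporter.

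Marker genes were those of ESCs in both media. The summed level of 10 ESC markers was 5618 to 5715 CPM in SL2i and 3956 to 3975 CPM in SL, and 1 of the 10, Fut4, had no read in SL2i. The 8 fibroblast markers summed to 9.18 to 9.36 CPM in SL2i and 42.0 to 45.5 CPM in SL, with Col3a1, Dcn and Postn without a read in SL2i and Lum without a read in SL. Fibroblasts are the usual feeder cells of ESC cultures. The 6 primitive endoderm markers summed to 3.06 to 3.80 CPM in SL2i and 7.41 to 8.46 CPM in SL, and the 5 neural markers to 51.7 to 53.3 CPM in SL2i and 116 to 121 CPM in SL. The 6 trophoblast markers (38.5 to 40.3 CPM in SL2i, 39.1 to 43.1 CPM in SL) and the 5 mesoderm markers (3.32 to 4.12 CPM in SL2i, 4.08 to 5.5 CPM in SL) had overlapping ranges. Sox7 of the endoderm markers and Neurog2 of the neural ones had no read in SL2i, and the mesoderm factor T had none in either medium. The 4 blood markers summed to 16.3 to 18.4 CPM in SL2i and 7.83 to 8.74 CPM in SL, with Ptprc, Hba-a1 and Lyz2 without a read in SL2i. The part of other cell types in the changes below was not tested.

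Naive pluripotency genes were higher in SL2i: 19 of 22 members rose, 2 fell and 1 was not called, over a background of 35.9% higher and 37.1% lower among all genes. That background holds for every list count between media below. The median log2 fold change of the list was 1.95, against -0.003 over all genes tested. Tbx3, a T-box factor that sustains the naive state downstream of LIF, moved most. It had 426 and 452 CPM in SL2i, against 12.8, 14.2 and 13.8 CPM in SL, a log2 fold change of 5.01 ± 0.058. Tfcp2l1, a factor through which both inhibitors promote self-renewal, had 1744 and 1776 CPM in SL2i, against 156, 160.0 and 158 CPM in SL. Its log2 fold change was 3.48 ± 0.034, and for both genes the lowest SL2i library stood several times above the highest SL library. Prdm14, which represses FGF receptor and DNA methyltransferase genes in ESCs, rose by 3.85 ± 0.10. Klf4, a Krüppel-like factor induced by LIF, had 387 and 404 CPM in SL2i, against 47.4, 48.9 and 50.4 CPM in SL. It rose by 3.02 ± 0.040, and the nuclear receptor gene Nr5a2 by 2.51 ± 0.056. By edgeR, the adjusted p among these 5 genes was at most 6.8e-52.

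Esrrb, an orphan nuclear receptor gene that GSK3 inhibition is known to derepress, had 1099 and 1058 CPM in SL2i, against 227, 233 and 234 CPM in SL, and rose by 2.22 ± 0.032. Nanog, a homeobox factor whose level is known to vary among serum-grown cells, had 1088 and 1079.6 CPM in SL2i, against 236, 225 and 238 CPM in SL, and rose by 2.22 ± 0.032, with 11.1% of its words shared. In both genes the media did not overlap. Klf2, which a 2i culture is known to need, rose by 1.82 ± 0.040, and Fgf4, the main FGF ligand of ESCs, by 0.77 ± 0.038. A pair of list members fell. Dppa3, which guards maternal methylation in the zygote, had 14.9 and 11.4 CPM in SL2i, against 95.4, 100.1 and 93.8 CPM in SL, a log2 fold change of -2.88 ± 0.080 with 30.4% of its words shared. Gbx2, a homeobox gene downstream of STAT3, changed by -0.30 ± 0.10 (42.7% shared). The 15 naive genes under 5% of shared words all rose, with a median of 2.05.

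**Figure D1:**
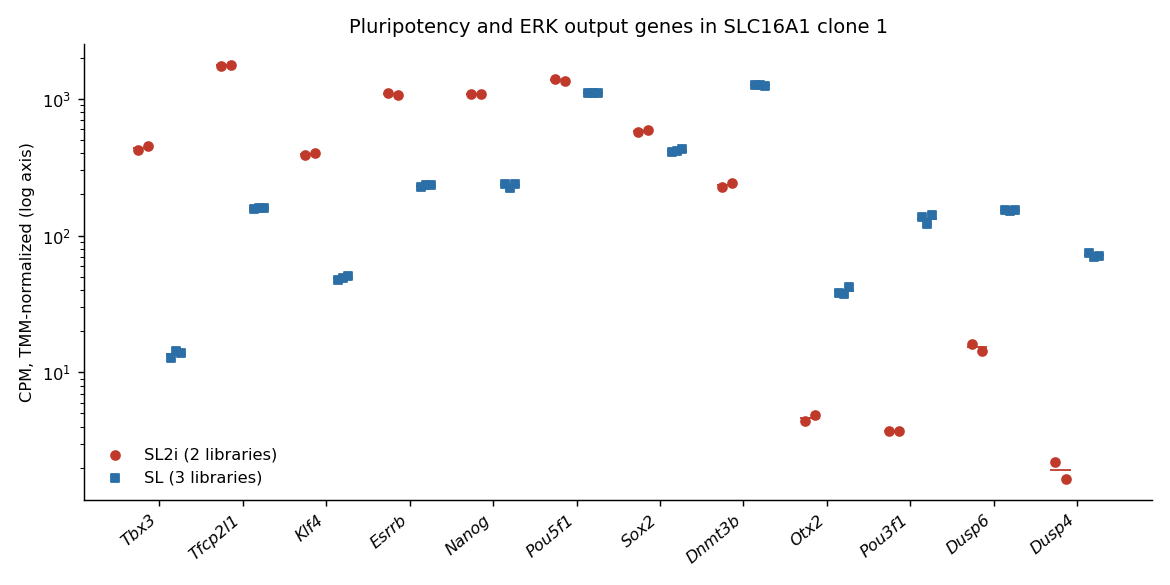
Level of 12 pluripotency and ERK output genes in each library of clone 1 (CPM, log axis), with SL2i libraries as red circles, SL libraries as blue squares and lines at the group means. The media do not overlap for any of the 12 genes: Tbx3, Tfcp2l1, Klf4, Esrrb and Nanog lie higher in SL2i, Pou5f1 and Sox2 lie close together in both media, and Dnmt3b, Otx2, Pou3f1, Dusp6 and Dusp4 lie lower in SL2i.

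Core pluripotency genes, which naive and formative cells share, moved less and in both directions, with 4 of 9 higher, 4 lower and a median of -0.09. Pou5f1, which encodes OCT4, had 1397 and 1353 CPM in SL2i, against 1107, 1109 and 1107 CPM in SL, a log2 fold change of 0.31 ± 0.031 with 14.7% of its words shared. Sox2, the partner of OCT4, had 569.6 and 593 CPM in SL2i, against 410.0, 414 and 432 CPM in SL, and rose by 0.47 ± 0.033. Both changes were small beside those of the naive factors, yet larger than the spread between libraries, and no SL2i library overlapped an SL library. The RNA-binding protein gene Lin28a, which blocks let-7 maturation and rises as cells leave the naive state, had 122 and 122 CPM in SL2i, against 679, 685 and 682 CPM in SL, and fell by 2.48 ± 0.038 (5.2% shared). Utf1, a chromatin factor gene, fell by 1.19 ± 0.039. In edgeR the adjusted p among these 4 reached at most 4.4e-16.

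Formative and primed genes fell almost without exception, 15 of the 16 tested, with 1 higher and a median of -2.40. Fgf5, the classic marker of the postimplantation epiblast, had 1 read over the SL2i libraries and 548 reads over the SL libraries, a ratio of 203 after scaling, SL over SL2i (95% exact binomial interval 36.3 to 8034). With so few SL2i reads it could be called in 1 direction only. Pou3f1, which encodes OCT6, had 3.69 and 3.71 CPM in SL2i, against 136, 122 and 141 CPM in SL, and fell by 5.16 ± 0.10 (8.27% shared). Otx2, which directs OCT4 to formative enhancers, had 4.43 and 4.88 CPM in SL2i, against 38.3, 37.3 and 41.7 CPM in SL, and fell by 3.07 ± 0.12. In each of these genes the highest SL2i library was well under the lowest SL library. The forkhead gene Foxp1 had 3.69 and 3.12 CPM in SL2i, against 136, 143 and 139 CPM in SL, and fell by 5.36 ± 0.094. Grhl2, a factor that opens epithelial enhancers in epiblast-like cells, fell by 3.80 ± 0.093, and Sox3 fell by 3.06 ± 0.33. The exception was Tcf7l1, which encodes the repressor that GSK3 inhibition inactivates, at 0.11 ± 0.051 (adjusted p = 0.044, edgeR). Over the alternatives run, 0 to 1 members of the list rose, since the Tcf7l1 call was lost in DESeq2, with RLE factors, with no filter and when any of 4 libraries of clone 1 was left out. Adjusted p values among the fitted falls named were at most 9.0e-15 (edgeR).

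ERK, the kinase that MEK activates, drives a known set of output genes, and 18 of 20 listed here fell, with 2 higher and a median of -1.64. Dusp4 and Dusp6 encode phosphatases that ERK induces and that in turn switch ERK off. Dusp6 had 16.2 and 14.4 CPM in SL2i, against 154, 152 and 154 CPM in SL, and fell by 3.33 ± 0.068 on the log2 scale. Dusp4 had 2.22 and 1.66 CPM in SL2i, against 74.6, 69.5 and 71.3 CPM in SL, and fell by 5.21 ± 0.13. The immediate early transcription factor gene Egr1 had 0.422 and 2.83 CPM in SL2i, against 43.9, 48.9 and 53.4 CPM in SL, and fell by 4.86 ± 0.25 (log2 fold change -4.11 without SL2i replicate 1 and -6.83 without SL2i replicate 2). Between media the libraries of these 3 genes were far apart. Spry4, a feedback inhibitor of receptor tyrosine kinases, had 34.7 and 39.2 CPM in SL2i, against 157, 158 and 156 CPM in SL, and fell by 2.08 ± 0.056. Myc fell by 1.61 ± 0.072 and the cyclin gene Ccnd1 fell by 1.08 ± 0.041 (22.3% shared). The ETS factor genes, which respond to ERK, were divided: Etv4 fell by 1.10 ± 0.065, whereas Etv5 stood at 0.71 ± 0.033 (30.6% shared) and Etv1 at 0.37 ± 0.084 (10.1% shared). At the least certain, the adjusted p among these 9 genes was 4.9e-05 (edgeR).

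Upstream of ERK, 10 of 14 FGF ligand and receptor genes fell and 2 rose. The receptor gene Fgfr2 had 1.27 and 2.93 CPM in SL2i, against 36.2, 38.6 and 38.8 CPM in SL, and fell by 4.15 ± 0.15 (log2 fold change -4.90 without SL2i replicate 2), while Fgfr1, the main receptor gene of ESCs, changed by -0.36 ± 0.042. Of the ligands, Fgf17 fell by 5.03 ± 0.20 and Fgf15 fell by 5.10 ± 0.30 (23.4% shared; log2 fold change -6.90 without SL2i replicate 1 and -4.28 without SL2i replicate 2). Fgf10 went the other way, with 6.12 and 4.19 CPM in SL2i, against 0.264, 0.0591 and 0.345 CPM in SL, and a log2 fold change of 4.47 ± 0.38. EdgeR gave an adjusted p among these 5 of at most 6.7e-13.

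Wnt targets and feedback genes, the readout of GSK3 inhibition, rose in 8 of 14 cases (6 to 8 over the alternatives run) and fell in 4, with a median of 0.82. Axin2, a scaffold of the complex that destroys beta-catenin and a general Wnt target, had 118 and 112 CPM in SL2i, against 14.2, 14.4 and 13.6 CPM in SL, and rose by 3.03 ± 0.074. The caudal homeobox gene Cdx1 had 33.9 and 35.3 CPM in SL2i, against 0.899, 0.709 and 0.862 CPM in SL, and rose by 5.38 ± 0.17. Notum, which encodes an enzyme that inactivates Wnt ligands, rose by 3.69 ± 0.096 (33.2% shared). These 3 genes were many times higher in every SL2i library than in any SL library. Not all feedback genes followed: Nkd2 and Nkd1, which encode Dishevelled-binding inhibitors, changed by -3.69 ± 0.23 and -2.03 ± 0.30, and the effector gene Lef1 fell by 1.49 ± 0.12 (14.7% shared). By edgeR, the adjusted p among these 6 was at most 2.6e-09.

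LIF was present in both media, and genes of the LIF and STAT3 pathway were split, 7 of 12 higher (5 to 7 over the alternatives run) and 5 lower. Stat3 itself stood at 0.37 ± 0.048 and the receptor gene Lifr at 0.50 ± 0.071. The feedback inhibitor gene Socs3 had 117 and 119 CPM in SL2i, against 112, 109.8 and 107 CPM in SL, a log2 fold change of 0.11 ± 0.045 (adjusted p = 0.029, edgeR), a call lost in DESeq2, with RLE factors, with no filter and when any of 4 libraries of clone 1 was left out. Its media did not overlap, though they lay close together. The cytokine-induced inhibitor gene Cish fell by 2.27 ± 0.20 (10.5% shared).

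Genes of Nodal and activin signaling were also split, 5 of 12 higher and 6 lower. Lefty1, a secreted Nodal inhibitor, had 7.39 and 7.7 CPM in SL2i, against 167, 154 and 161 CPM in SL, and fell by 4.41 ± 0.078 (26.3% shared), whereas Lefty2 stood at 0.70 ± 0.043 (18.9% shared). Nodal itself stood at 0.79 ± 0.051 and Inhba, an activin subunit gene, at -3.49 ± 0.73, with 4 reads over the SL2i libraries, all in replicate 1. The log2 fold change of Inhba was -8.44 without SL2i replicate 1, which leaves it no SL2i read, and -2.46 without SL2i replicate 2. In the BMP list 6 of 10 rose (4 to 6 over the alternatives run) and 4 fell. Id1 and Id2, which encode inhibitors of helix-loop-helix factors and are induced by BMP from serum, changed by -3.94 ± 0.13 and -3.60 ± 0.089. Their relatives did not follow: Id3 stood at 0.48 ± 0.085 and Id4 at 1.78 ± 0.17, and the ligand gene Bmp4 at 0.69 ± 0.11. For Id1 the libraries held 3.59 and 4.78 CPM in SL2i, against 73.2, 56.6 and 63.2 CPM in SL, and for Id3 32.6 and 34.6 CPM in SL2i, against 24.3, 22.9 and 24.9 CPM in SL, so that the 2 genes moved in opposite directions between the same libraries. In edgeR the adjusted p among these genes of both lists reached at most 0.00012.

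The de novo methyltransferase genes fell: Dnmt3a had 42.4 and 46.8 CPM in SL2i, against 232, 233 and 226 CPM in SL, and fell by 2.36 ± 0.050, and Dnmt3b had 225 and 244 CPM in SL2i, against 1261, 1265 and 1249.9 CPM in SL, and fell by 2.42 ± 0.036 (13.7% shared). Their cofactor gene Dnmt3l changed by -0.43 ± 0.034. The maintenance genes were higher, with Dnmt1 at 0.47 ± 0.032 and Uhrf1, which recruits DNMT1 to newly copied DNA, at 1.55 ± 0.030 (24.9% shared). Of the demethylating dioxygenase genes, Tet2 had 346 and 371 CPM in SL2i, against 62.5, 61.5 and 60.9 CPM in SL, and rose by 2.54 ± 0.042, Tet1 stood at 0.36 ± 0.052 and Tet3 fell by 1.04 ± 0.094. Adjusted p values among these 8 were at most 6.7e-06 (edgeR). Methylation itself was not measured.

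Germline genes that promoter methylation is known to silence went both ways, 6 of 17 higher and 9 lower. Tex101 rose by 2.49 ± 0.49 and Hormad1 by 2.52 ± 0.15 (37% shared), whereas the piRNA pathway genes Tdrd1 and Mael fell, with log2 fold changes of -5.12 ± 0.35 (log2 fold change -6.45 without SL2i replicate 1 and -4.40 without SL2i replicate 2) for Tdrd1 and -2.37 ± 0.19, and the helicase gene Ddx4 fell by 3.0 ± 0.15. Imprinted genes, which are expressed from 1 parental allele, mostly fell: 22 of 28 were lower, 4 were higher and the median was -2.0. Nnat, a paternally expressed membrane protein gene, had 3.06 and 2.63 CPM in SL2i, against 80.7, 83 and 78.9 CPM in SL, and fell by 4.83 ± 0.12. Dlk1, a paternally expressed Notch ligand relative, had 0.422 and 0.878 CPM in SL2i, against 13.8, 13.3 and 11.4 CPM in SL, and fell by 4.27 ± 0.25 (log2 fold change -4.91 without SL2i replicate 2). In both genes the SL2i libraries held a small fraction of the SL level. Magel2 fell by 4.65 ± 0.33 (log2 fold change -5.39 without SL2i replicate 2) and Phlda2, a maternally expressed brake on placental growth, fell by 3.79 ± 0.11. The risers included Plagl1, a zinc finger gene, which had 209 and 215 CPM in SL2i, against 21.8, 22.3 and 24.9 CPM in SL, and rose by 3.20 ± 0.054, and the maternal noncoding RNA H19, which rose by 2.92 ± 0.28 (5.39% shared). At the least certain, the adjusted p among the named germline and imprinted genes was 3.7e-06 (edgeR).

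Lineage genes did not move as one block. Of 14 primitive endoderm genes, 8 fell and 4 rose. Sox7 and Cubn had no read over the SL2i libraries and Hnf4a none over the SL libraries, so each could be called in 1 direction only. The basement membrane collagen genes Col4a1 and Col4a2 changed by -2.81 ± 0.070 and -3.30 ± 0.091 and the laminin gene Lamb1 fell by 3.58 ± 0.054, whereas the laminin genes Lama1 and Lamc1 stood at 1.18 ± 0.047 and 1.04 ± 0.031. The nuclear receptor gene Hnf4a had 67 reads over the SL2i libraries and no read over the SL libraries, at least 60.3-fold higher in SL2i against a floor of 3 counts over the group. Of 14 trophoblast genes, 6 rose and 7 fell. The transcription factor genes Tfap2a (5.35 ± 0.15; 12.9% shared), Gata3 (2.47 ± 0.17) and Cdx2 (2.18 ± 0.28) rose, and Hand1, another transcription factor gene, fell by 2.97 ± 0.43. Of the keratin genes, Krt18 had 25.3 and 25.9 CPM in SL2i, against 357, 346 and 336 CPM in SL, and fell by 3.76 ± 0.066 (12.4% shared), and Krt19 fell by 5.07 ± 0.11. EdgeR gave an adjusted p among the genes named with a fitted change of at most 1.1e-09.

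Of 12 fibroblast genes, 10 fell and 2 rose, with a median of -2.16, and Col3a1 and Dcn passed the filter through SL alone. Col1a1, a fibrillar collagen gene, fell by 3.95 ± 0.19, and the collagen gene Col3a1 had no read over the SL2i libraries and 122 reads over the SL libraries, at least 15.1-fold lower in SL2i against a floor of 3 counts over the group. Col6a3 rose by 4.22 ± 0.65 (log2 fold change 3.62 without SL replicate 1 and 4.92 without SL replicate 2) and the PDGF receptor gene Pdgfrb by 2.25 ± 0.26. In the neural list 5 of 7 fell and 2 rose. Of the falls, Pax6 had 3 reads over the SL2i libraries and could be called in 1 direction only. The intermediate filament gene Nes had 15.6 and 14 CPM in SL2i, against 291, 290.2 and 288 CPM in SL, and fell by 4.29 ± 0.061, and Map2 fell by 3.73 ± 0.18 (log2 fold change -4.34 without SL2i replicate 2), while the neural plate factor gene Sox1 rose by 2.56 ± 0.19. Of 8 mesoderm and primitive streak genes, 3 rose and 1 fell (2 to 3 and 0 to 1 over the alternatives), and Gsc, which marks the organizer, stood at 2.61 ± 0.56 (log2 fold change 3.32 without SL replicate 1). Of 35 Hox genes listed, 12 were tested and 7 of these rose (5 to 7 over the alternatives run). In 3 of the 7, Hoxc6, Hoxc9 and Hoxc10, the SL libraries held 3 or fewer reads, so that these could be called in 1 direction only. Hoxc6 and Hoxc9 had just 7 and 8 reads over the SL2i libraries, and the read filter used the libraries of all 3 lines. Hoxc4 had 4.86 and 4.39 CPM in SL2i, against 0.212, 0.118 and 0.46 CPM in SL, and rose by 4.10 ± 0.40 (log2 fold change 4.72 without SL replicate 3). Of 18 genes listed for the 2-cell-like state, in which a few ESCs transcribe genes of the 2-cell embryo, 11 were tested. In 10 of the 11 the SL libraries held 3 or fewer reads, so that the filter left higher in SL2i as the only direction they could take, and their count is no result. Each shares at least 5% of its words, up to 95.4% for Zscan4b. By edgeR, the adjusted p among the genes named with a fitted change was at most 2.3e-05.

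Targets of SRF and genes of the actin cytoskeleton fell in 18 of 19 cases and rose in 1, with a median of -3.07. Of the 18, Acta2, Tagln, Cnn1 and Ankrd1 had 3 or fewer reads in SL2i and passed the filter through SL alone. SRF is a transcription factor that binds CArG boxes and, with MRTF cofactors or ETS factors, drives actin, myosin and immediate early genes. Acta2, the smooth muscle actin gene, had 1 read over the SL2i libraries and 3657 reads over the SL libraries, a ratio of 1355 after scaling, SL over SL2i (95% exact binomial interval 243 to 53534). The calponin gene Cnn1 had 2 reads over the SL2i libraries and 2295 reads over the SL libraries, a ratio of 425 after scaling, SL over SL2i (95% exact binomial interval 118 to 3513), and Myl9, a myosin light chain gene, had 1.16 and 0.683 CPM in SL2i, against 38, 40.8 and 38 CPM in SL. Thbs1, which encodes the secreted matrix protein thrombospondin, had 2.53 and 2.73 CPM in SL2i, against 264, 263 and 263 CPM in SL, and fell by 6.64 ± 0.087. Tropomyosin Tpm1 fell by 3.70 ± 0.044, the calponin gene Cnn2 fell by 3.26 ± 0.056, vinculin Vcl fell by 1.64 ± 0.039 (25.3% shared) and Srf itself fell by 0.90 ± 0.057. Only the intermediate filament gene Vim was higher, at 0.60 ± 0.047. For Myl9 and Thbs1 each SL2i library lay far below each SL library. Fibroblasts also express many actin and matrix genes, and the fibroblast markers summed to 9.18 to 9.36 CPM in SL2i and 42.0 to 45.5 CPM in SL, and their part in these falls was not tested. In edgeR the adjusted p among Thbs1, Tpm1, Cnn2, Vcl, Srf, Vim and Myl9 reached at most 1.4e-21.

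Promoters of this list are shown because its members fell together and the site that SRF binds is known. A CArG box was searched as CC, then 6 bases each A or T, then GG, a pattern that reads the same on both strands, in the window from 250 bases before to 50 after each gene's start (RefSeq, GRCm38.p6). The motif was chosen after the values were seen, and the list was made of SRF targets and actin genes. A higher share of boxes than over all promoters was thus built into the list and is no result of these data. It occurred in 4 of the 16 list members with a promoter sequence (25%), against 488 of 27025 promoters of all genes (1.81%). The 4 windows are those of Cnn2 (chr10:79988350-79988649, plus strand), Myl9 (chr2:156775214-156775513, plus strand), Vcl (chr14:20929148-20929447, plus strand) and Srf (chr17:46556113-46556412, minus strand), with the boxes in capitals.
Cnn2: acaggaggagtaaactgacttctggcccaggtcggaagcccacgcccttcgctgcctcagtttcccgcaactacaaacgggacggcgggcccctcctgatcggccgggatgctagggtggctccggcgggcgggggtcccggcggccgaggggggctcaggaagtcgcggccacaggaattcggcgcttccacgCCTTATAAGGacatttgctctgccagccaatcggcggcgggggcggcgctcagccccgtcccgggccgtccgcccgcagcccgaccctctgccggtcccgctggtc
Myl9: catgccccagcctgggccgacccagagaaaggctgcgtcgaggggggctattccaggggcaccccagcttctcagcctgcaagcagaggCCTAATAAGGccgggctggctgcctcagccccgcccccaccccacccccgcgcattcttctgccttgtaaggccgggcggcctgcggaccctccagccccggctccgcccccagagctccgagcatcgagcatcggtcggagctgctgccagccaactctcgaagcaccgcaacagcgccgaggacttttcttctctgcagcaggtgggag
Vcl: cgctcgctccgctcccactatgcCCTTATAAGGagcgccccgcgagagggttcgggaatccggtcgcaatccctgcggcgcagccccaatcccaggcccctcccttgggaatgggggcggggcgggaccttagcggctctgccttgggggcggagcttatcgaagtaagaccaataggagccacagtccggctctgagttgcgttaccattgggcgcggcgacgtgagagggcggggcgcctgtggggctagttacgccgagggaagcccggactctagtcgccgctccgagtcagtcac
Srf: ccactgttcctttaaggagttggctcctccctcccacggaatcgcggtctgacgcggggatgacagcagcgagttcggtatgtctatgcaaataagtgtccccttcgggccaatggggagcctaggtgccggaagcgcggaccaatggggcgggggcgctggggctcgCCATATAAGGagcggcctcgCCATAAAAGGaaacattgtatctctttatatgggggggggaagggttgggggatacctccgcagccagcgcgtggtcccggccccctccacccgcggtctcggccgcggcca
The boxes begin at -56 in Cnn2, -161 in Myl9, -227 in Vcl, and -82 and -62 in Srf, counted from the annotated start. Cnn2 and Vcl hold the same box, and those of Myl9 and Srf differ from it in the A and T bases. A match is a description of the letters, and no match in the other 12 promoters says only that these letters are not in the window. The 4 genes with a box changed by -3.26 ± 0.056, -5.40 ± 0.18, -1.64 ± 0.039 (25.3% shared) and -0.90 ± 0.057 on the log2 scale, in the order printed. Thbs1, without a box in this window, changed by -6.64 ± 0.087.

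Adhesion genes fell in 14 of 20 cases and rose in 4. Cldn6, a claudin gene of epiblast tight junctions, had 10.8 and 9.17 CPM in SL2i, against 354, 331 and 341 CPM in SL, and fell by 5.11 ± 0.063, and Cldn7 fell by 4.76 ± 0.11. The integrin gene Itga3 fell by 3.44 ± 0.046, the hyaluronan receptor gene Cd44 fell by 2.62 ± 0.31 (log2 fold change -3.27 without SL2i replicate 1) and E-cadherin Cdh1 fell by 1.31 ± 0.033. Fibronectin, Fn1, rose by 1.38 ± 0.031, and Pecam1, an adhesion molecule of naive cells, by 1.78 ± 0.055. Adjusted p values among these 7 were at most 6.9e-13 (edgeR).

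**Figure D2:**
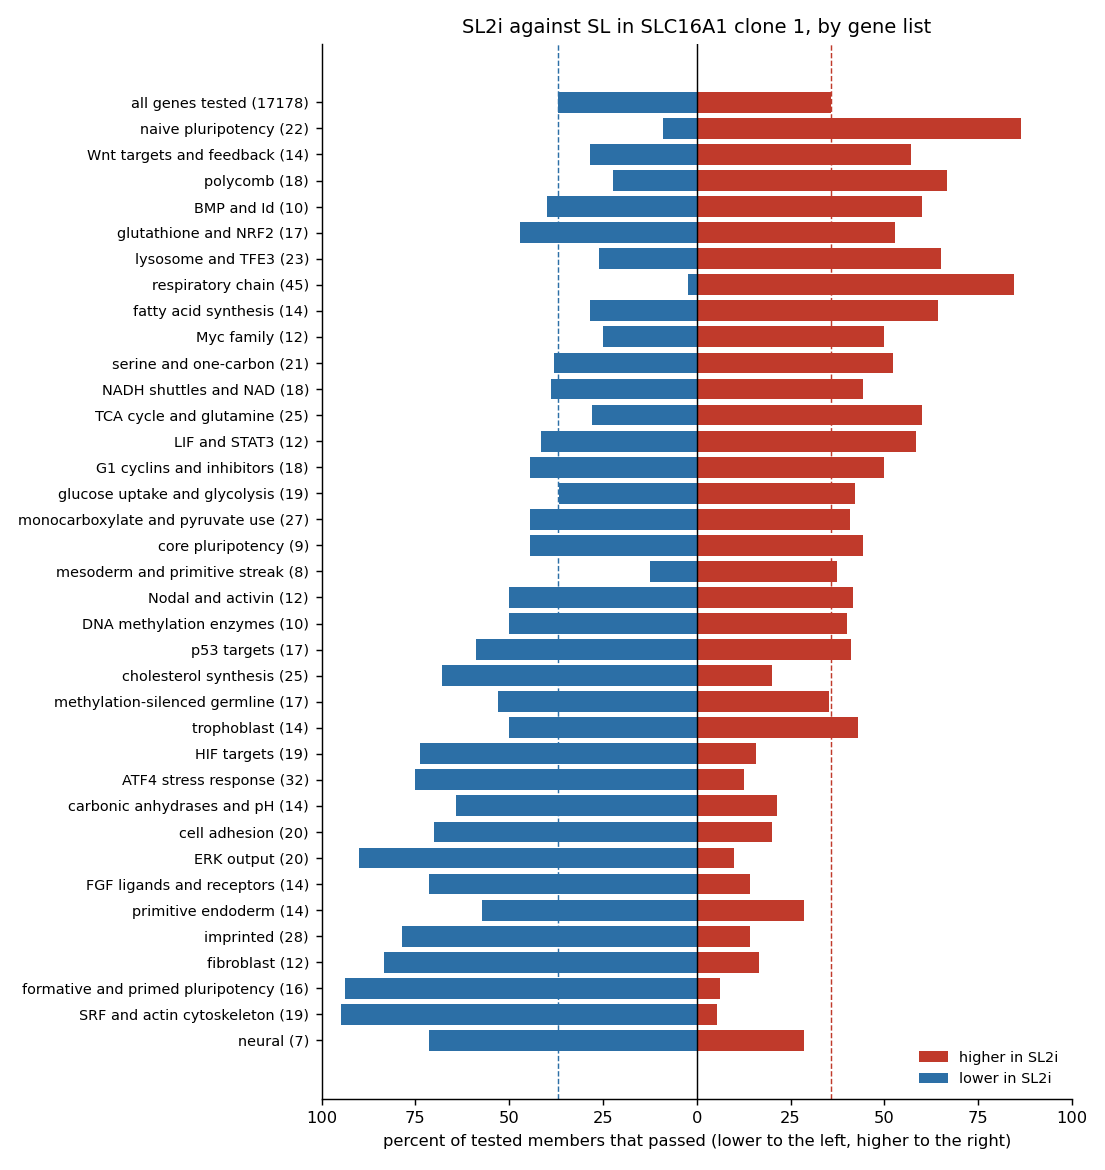
Share of tested members of each gene list but the Hox and 2-cell-like ones (number tested in brackets) that were higher (red, to the right) or lower (blue, to the left) in SL2i than in SL in clone 1, in percent, at an adjusted p under 0.05, with dashed lines at the shares over all 17178 genes (35.9% higher, 37.1% lower). Naive pluripotency and respiratory chain genes lie mostly to the right, and formative, ERK output, SRF and actin, imprinted and fibroblast genes mostly to the left.

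Genes of monocarboxylate transport and pyruvate use, the subject of the study's title, were balanced: 11 of 27 rose, 12 fell and the median was 0.02. Among all genes 35.9% rose and 37.1% fell. The changes were of unequal size. Emb encodes embigin, a chaperone of monocarboxylate transporters, and had 18.2 and 15.1 CPM in SL2i, against 306, 292 and 304 CPM in SL, and fell by 4.18 ± 0.059 (17.6% shared). Slc16a3, which encodes the lactate exporter MCT4, had 29.1 and 25.4 CPM in SL2i, against 171, 164 and 173 CPM in SL, and fell by 2.64 ± 0.063. Slc16a7, which encodes the high-affinity pyruvate carrier MCT2, had no read over the SL2i libraries and 117 reads over the SL libraries, at least 14.5-fold lower in SL2i against a floor of 3 counts over the group. Bsg, the chaperone of MCT1, went the other way at 0.45 ± 0.033. In Emb and Slc16a3 the media were far apart, and for Bsg the libraries held 474 and 442 CPM in SL2i, against 342, 327 and 338 CPM in SL, which do not overlap.

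Inside the cell, pyruvate enters mitochondria through a carrier made of MPC1 and MPC2. Mpc1 rose by 1.88 ± 0.25 (31.1% shared) and Mpc2 by 0.35 ± 0.14. Kinases of the PDK family switch off pyruvate dehydrogenase. Pdk1 had 57.4 and 56.5 CPM in SL2i, against 235, 244 and 234 CPM in SL, and fell by 2.06 ± 0.046, Pdk3 fell by 0.59 ± 0.069, and Pdk2 and Pdk4 stood at 0.43 ± 0.18 and 0.59 ± 0.15. The activating phosphatase genes were split, with Pdp2 at 1.58 ± 0.069 and Pdp1 at -1.02 ± 0.17. Lactate dehydrogenase genes Ldha and Ldhb stood at -0.70 ± 0.033 (20.1% shared) and 0.02 ± 0.048 (33.8% shared; adjusted p = 0.69, edgeR). Pcx, which encodes pyruvate carboxylase, stood at 0.69 ± 0.093. The Mpc2 call was lost with no filter and without SL2i replicate 1, and that of Pdk2 at equal depth, with no filter and without SL replicate 2 or SL2i replicate 2. All genes named here other than Ldhb passed, with adjusted p values of at most 0.024 (edgeR).

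Of 19 genes of glucose uptake and glycolysis, 8 rose and 7 fell, against 35.9% higher and 37.1% lower among all genes. The uptake gene Slc2a1 had 257 and 266 CPM in SL2i, against 1009, 945 and 983 CPM in SL, and fell by 1.90 ± 0.036, and Pfkfb3, whose product activates phosphofructokinase, fell by 2.88 ± 0.10. The hexokinase gene Hk1 rose by 1.66 ± 0.052, while Hk2 stood at -0.06 ± 0.034 (adjusted p = 0.13, edgeR). Gapdh had a log2 fold change of 3.89 ± 0.047, with 28.2% of its words in other genes, many of them pseudogenes. Of 18 genes of the NADH shuttles and NAD synthesis, 8 rose and 7 fell. The aspartate-glutamate carriers Slc25a12 and Slc25a13, which move NADH equivalents into mitochondria, stood at 0.75 ± 0.069 and 0.69 ± 0.042. Nnt, the transhydrogenase gene, fell by 1.01 ± 0.077 (47.9% shared) and Naprt, of NAD synthesis from nicotinic acid, fell by 3.11 ± 0.11 (10.3% shared). At the least certain, the adjusted p among the called genes of this paragraph was 6.6e-18 (edgeR).

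In mitochondria, 15 of 25 genes of the TCA cycle and glutamine use rose and 7 fell (12 to 15 and 7 to 8 over the alternatives run), beside 35.9% and 37.1% of all genes. The isocitrate dehydrogenase genes Idh2 and Idh1 rose by 1.44 ± 0.040 and 1.03 ± 0.038. Nuclear-encoded respiratory chain genes rose in 38 of 45 cases (32 to 38 over the alternatives run) and fell in 1, Uqcrfs1, with small changes at a median of 0.33. Among the 24 under 5% of shared words, 18 rose and 1 fell, with a median of 0.27. Examples under 5% are the cytochrome oxidase subunit gene Cox8a at 0.74 ± 0.040 and the complex III subunit gene Uqcrc1 at 0.64 ± 0.035. Cox5b, the largest, stood at 1.78 ± 0.051 (16.6% shared). Of 23 lysosome and TFE3 genes, 15 rose and 6 fell (13 to 15 and 5 to 6 over the alternatives run). The regulator genes of this family moved apart: Mitf rose by 3.50 ± 0.12, Tfeb by 1.54 ± 0.088, and Tfe3, whose exclusion from the nucleus lets ESCs leave the naive state, fell by 0.75 ± 0.045. EdgeR gave an adjusted p among these 7 genes without Uqcrfs1 and Cox5b of at most 1.9e-29.

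Genes of the ATF4 response to amino acid shortage mostly fell, 24 of 32, with 4 higher and a median of -0.85. Stc2, a secreted glycoprotein gene, had 2.64 and 4.0 CPM in SL2i, against 38.8, 38.8 and 38.7 CPM in SL, and fell by 3.53 ± 0.14. Chac1, which degrades glutathione, fell by 2.68 ± 0.12 and the mTOR inhibitor gene Ddit4 fell by 2.56 ± 0.058. Psat1, of serine synthesis, had 268 and 265 CPM in SL2i, against 756, 756 and 738 CPM in SL, and fell by 1.49 ± 0.034. Asns, which makes asparagine, had 1211 and 1143 CPM in SL2i, against 491, 489 and 475 CPM in SL, and rose by 1.28 ± 0.032, against the direction of most of the list. Atf4 itself changed by -0.33 ± 0.034. In the serine and one-carbon list, 11 of 21 rose and 8 fell. The mitochondrial folate genes Mthfd2 and Mthfd2l changed by -1.30 ± 0.049 and -2.79 ± 0.20, and the cytosolic folate gene Aldh1l1 rose by 2.73 ± 0.14 (11.4% shared). Tdh, threonine dehydrogenase, on which mouse ESCs depend for glycine and acetyl-CoA, rose by 2.20 ± 0.037 (17.7% shared). By edgeR, the adjusted p among these genes was at most 5.4e-15.

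Cholesterol synthesis genes fell in 17 of 25 cases and rose in 5, with a median of -0.41. The background for the lists of this paragraph was 37.1% lower and 35.9% higher. Ebp, a sterol isomerase gene, rose by 1.51 ± 0.080. In fatty acid synthesis 9 of 14 rose and 4 fell, with Acacb at 1.46 ± 0.074 and the desaturase gene Scd1 at 0.73 ± 0.040 (8.42% shared). Of 19 targets of the hypoxia factor HIF, 14 fell and 3 rose. The carbonic anhydrase gene Car12 fell by 4.32 ± 0.39 and the collagen hydroxylase gene P4ha2 fell by 1.92 ± 0.15, whereas Epas1, which encodes HIF2A, rose by 1.51 ± 0.062. Carbonic anhydrase and pH genes fell in 9 of 14 cases and rose in 3, with Car4 at -6.41 ± 0.15 and the bicarbonate cotransporter gene Slc4a5 at 5.58 ± 0.11. In the glutathione and NRF2 list 9 of 17 rose and 8 fell, with the quinone reductase gene Nqo1 at 2.02 ± 0.060 and the cystine importer gene Slc7a11 at -1.96 ± 0.13. In edgeR the adjusted p among these genes reached at most 5.0e-18.

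In the cell cycle list 9 of 18 rose and 8 fell, where 35.9% of all genes rose and 37.1% fell. The D-type cyclin genes moved apart, with Ccnd2 at -2.27 ± 0.22 (7.01% shared), Ccnd1 at -1.08 ± 0.041 (22.3% shared) and Ccnd3 at 1.19 ± 0.039 (8.17% shared). The CDK inhibitor genes Cdkn1a and Cdkn2c rose by 1.91 ± 0.044 (9.87% shared) and 1.96 ± 0.37, and Cdkn1c fell by 3.74 ± 0.099 (27.3% shared). Targets of p53 were split, 7 of 17 higher and 10 lower. In the Myc family 6 of 12 rose and 3 fell: Mycn fell by 1.81 ± 0.042 and Mycl rose by 0.87 ± 0.074. Polycomb genes rose in 12 of 18 cases and fell in 4. Phf19, which recruits the PRC2 complex, had 0.317 and 0.683 CPM in SL2i, against 12.2, 10.5 and 11.3 CPM in SL, and fell by 4.46 ± 0.28 (log2 fold change -5.13 without SL2i replicate 2), far from the other members, and Cbx8, of the PRC1 complex, rose by 1.94 ± 0.40. The methyltransferase gene Ezh2 stood at 0.05 ± 0.040 (adjusted p = 0.25, edgeR). Adjusted p values among the other genes named here were at most 8.3e-06 (edgeR).

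Over all genes, in or outside these lists, genes were named by the size of their change where the mean log2 CPM reached 3 and the media did not overlap. Arl14epl rose by 6.73 ± 0.088 (6.2% shared). Slc4a5, a sodium bicarbonate cotransporter gene, had 84.1 and 86.8 CPM in SL2i, against 2.12, 1.48 and 1.72 CPM in SL, and rose by 5.58 ± 0.11. Jam2, a junctional adhesion molecule gene, had 447 and 453 CPM in SL2i, against 23.5, 24 and 26.1 CPM in SL, and rose by 4.20 ± 0.043. Both genes were detected in every SL library, at a small fraction of their SL2i level. Calcoco2 (5.28 ± 0.056; 21% shared), Zfp951 (4.92 ± 0.11; 7.67% shared), Fam25c (4.75 ± 0.10) and the ribosomal protein gene Rps27 (4.69 ± 0.12; 27.7% shared) were the others beside Tbx3. At the least certain, the adjusted p among these 7 was 7.2e-42 (edgeR).

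The largest falls by the same rule were of genes that were almost silent in SL2i. Fndc3c1 had no read over the SL2i libraries and 7261 reads over the SL libraries, at least 897-fold lower in SL2i against a floor of 3 counts over the group, with 19.9% of its words shared. Sema3e, a secreted guidance protein gene, had 0.211 and 0.975 CPM in SL2i, against 137, 143 and 143 CPM in SL, and fell by 7.84 ± 0.14 (log2 fold change -7.17 without SL2i replicate 1 and -9.34 without SL2i replicate 2). Kif1a, a neuronal motor protein gene, had 0.95 and 1.27 CPM in SL2i, against 208, 207 and 216 CPM in SL, and fell by 7.55 ± 0.11. Esrp1, an epithelial splicing regulator gene, had 0.95 and 1.27 CPM in SL2i, against 167, 168 and 167 CPM in SL, and fell by 7.22 ± 0.11. In each of these 3 genes every SL2i library lay far below every SL library. Car4, which encodes a membrane-anchored carbonic anhydrase, had 0.633 and 1.07 CPM in SL2i, against 72.3, 72.2 and 77.6 CPM in SL, and fell by 6.41 ± 0.15, and the adhesion receptor gene Adgrd1 fell by 6.03 ± 0.076. EdgeR gave an adjusted p among Sema3e, Kif1a, Esrp1, Car4 and Adgrd1 of at most 3.8e-63.

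The response of clone 1 was then set against that of chr8A, which asks whether the medium acts alike in the altered and the control line. The 2 responses share no library. Of the 12540 genes called in clone 1, 10870 (86.7%, and 86.9% of the 12510 called in chr8A) were called in both lines, and 10714 of these (98.56%) moved in the same direction. The difference between the responses passed for 2925 genes (17.0% of those tested), 1337 (7.78%) with a higher log2 fold change in clone 1 and 1588 (9.24%) with a lower one. In 920 of the 2925 genes (31.5%) both lines were called in the same direction with the smaller change in clone 1, and in 1021 (34.9%) with the larger one. In 156 genes the lines were called in opposite directions, 434 were called in clone 1 alone and 390 in chr8A alone. Differences of at least 2-fold numbered 249 (1.45%) higher and 197 (1.15%) lower. On the second principal component, with 2.68% of the variance, the SL2i libraries of chr8A lay at -19.2 and -18.1 and those of both clones at 9.0 to 10.0.

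**Figure D3:**
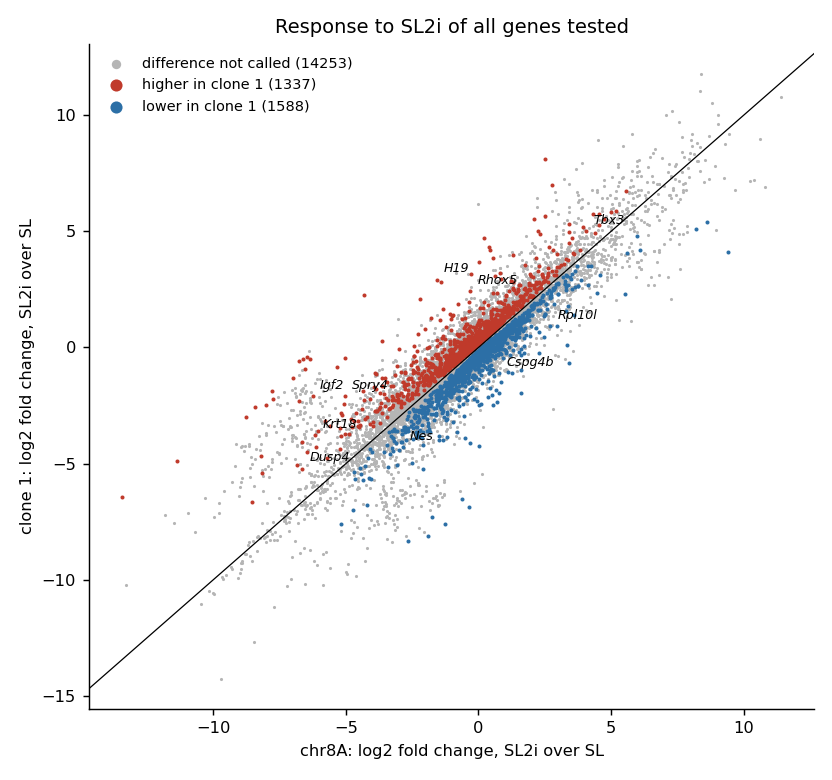
Log2 fold change, SL2i over SL, of all 17178 genes tested in clone 1 (vertical axis) and in chr8A (horizontal axis), with the diagonal of equal response. Red points are the 1337 genes with a higher response in clone 1, blue points the 1588 with a lower one and grey points genes whose difference was not called, and most coloured points lie close to the diagonal.

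Among ERK output genes the difference was positive for 10 of 20 members and negative for 1, over a background of 7.78% positive and 9.24% negative among all genes. Of the 10, all but Etv5 fell in both lines, and fell less in clone 1. Over the alternatives run, 8 to 10 were positive and 1 to 2 negative. Spry4 differed most. In clone 1 it had 34.7 and 39.2 CPM in SL2i, against 157, 158 and 156 CPM in SL. In chr8A it had 3.77 and 4.64 CPM in SL2i, against 139.7, 138 and 137 CPM in SL. In SL the lines were close, and in SL2i the clone 1 libraries held several times the level of the chr8A libraries. The responses were -2.08 ± 0.056 in clone 1 and -5.04 ± 0.089 in chr8A, a difference of 2.96 ± 0.13 (adjusted p = 6.2e-36, edgeR). Etv4 changed by -1.10 ± 0.065 in clone 1 and -2.78 ± 0.086 in chr8A, a difference of 1.68 ± 0.12. Phlda1 differed by 1.53 ± 0.23 (31% shared), Dusp4 by 1.42 ± 0.42 (a call lost without SL2i clone 1 replicate 1 or SL2i chr8A replicate 2), Dusp6 by 1.14 ± 0.15 and Myc by 1.14 ± 0.13. The exception was Ccnd1, which changed by -1.08 ± 0.041 in clone 1 and -0.80 ± 0.041 in chr8A, a difference of -0.28 ± 0.059 (22.3% shared). The difference for Egr1, 0.01 ± 0.55, did not pass (adjusted p = 1.000, edgeR) and has a wide error. By edgeR, the adjusted p among the 7 called differences was at most 0.009.

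**Figure D4:**
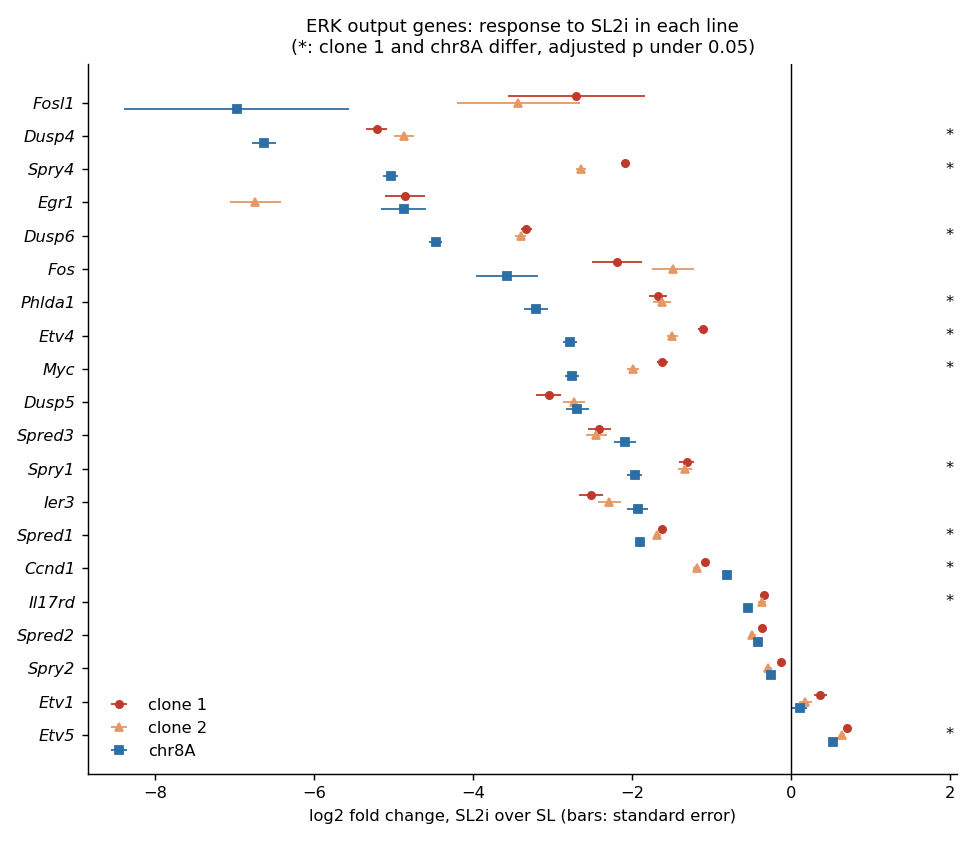
Log2 fold change, SL2i over SL, of the 20 ERK output genes in clone 1 (red circles), clone 2 (orange triangles) and chr8A (blue squares), with bars for the standard error and an asterisk where clone 1 and chr8A differ at an adjusted p under 0.05. Spry4, Dusp4, Dusp6, Phlda1, Etv4 and Myc lie further left in chr8A than in clone 1, and for Spry4 both clones stand apart from chr8A.

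Among naive pluripotency genes 12 of 22 differences were positive and 2 negative (9 to 14 and 2 over the alternatives), and 10 of the 12 were genes that rose in clone 1. Over all genes 7.78% of differences were positive and 9.24% negative, which is also the background for the formative genes below. Tbx3 rose by 5.01 ± 0.058 in clone 1 and 4.04 ± 0.055 in chr8A, a difference of 0.97 ± 0.091. Esrrb rose by 2.22 ± 0.032 in clone 1 and 1.58 ± 0.032 in chr8A, and the lysosomal enzyme gene Manba differed by 1.07 ± 0.063. In clone 1 Esrrb had 1099 and 1058 CPM in SL2i, against 227, 233 and 234 CPM in SL. The chr8A libraries had 837 and 843 CPM in SL2i, against 277, 293 and 275 CPM in SL. Clone 1 thus stood above chr8A in SL2i and below it in SL. The differences for Nanog (0.08 ± 0.045; 11.1% shared) and Klf4 (0.08 ± 0.057) did not pass (adjusted p = 0.25 and 0.41, edgeR). Dppa3 fell more in clone 1, with a difference of -1.09 ± 0.12 (30.4% shared). Among the 16 formative and primed genes tested, 2 differences were positive and 5 negative, including the N-cadherin gene Cdh2 at -1.08 ± 0.18. In edgeR the adjusted p among the differences of Tbx3, Esrrb, Manba, Dppa3 and Cdh2 reached at most 1.9e-06.

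In the ATF4 list 16 of 32 differences were negative and 1 was positive (13 to 17 and 0 to 2 over the alternatives). For this and the lists below, the shares over all genes were 9.24% negative and 7.78% positive. Psat1 changed by -1.49 ± 0.034 in clone 1 and -0.94 ± 0.033 in chr8A, a difference of -0.55 ± 0.047. Pck2, a mitochondrial enzyme gene of phosphoenolpyruvate synthesis, differed by -0.83 ± 0.076, Chac1 by -0.77 ± 0.19 (lost without SL2i clone 1 replicate 1 or SL2i chr8A replicate 2) and Slc38a2, an amino acid transporter gene, by -0.55 ± 0.045. In the serine and one-carbon list 9 of 21 were negative and 3 positive (7 to 9 and 2 to 3 over the alternatives), in fatty acid synthesis 6 of 14 negative and none positive (4 to 6 negative), in adhesion 7 of 20 negative and 1 positive, and in the respiratory chain 9 of 45 negative and 2 positive (2 to 11 and 0 to 3 over the alternatives). Among pyruvate genes 8 of 27 were negative and 3 positive (6 to 9 and 3 over the alternatives): Ldhb differed by -1.14 ± 0.061 (33.8% shared), Emb by -0.75 ± 0.10 (17.6% shared) and Gpt2, an alanine transaminase gene, by -0.52 ± 0.077, against 0.65 ± 0.13 for Pcx. Adjusted p values among these 8 differences were at most 0.002 (edgeR).

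Imprinted genes differed in both directions, 7 of 28 positive and 6 negative (6 to 7 and 4 to 7 over the alternatives), against 7.78% and 9.24% of all genes. Peg10, a retrotransposon-derived placental gene, had 128 and 134 CPM in SL2i, against 1195, 1132 and 1189 CPM in SL of clone 1. Its level in chr8A was 41.6 and 39.7 CPM in SL2i, against 1092, 997 and 1066 CPM in SL, and the responses differed by 1.54 ± 0.062. H19 rose by 2.92 ± 0.28 in clone 1, against -1.57 ± 0.38 in chr8A (5.39% shared). The maternal noncoding RNA gene Rian went the other way. In clone 1 it had 81.4 and 89.5 CPM in SL2i, against 369, 392 and 380.5 CPM in SL. In chr8A it had 222 and 197 CPM in SL2i, against 365, 365 and 371 CPM in SL, and the responses differed by -1.34 ± 0.059. In trophoblast genes 7 of 14 were positive and 1 negative (6 to 7 and 1 over the alternatives): Krt18 differed by 2.40 ± 0.16 (12.4% shared) and Gata3 by 1.13 ± 0.25. The BMP target Id3 differed by 1.84 ± 0.15, with a response of 0.48 ± 0.085 in clone 1 and -1.35 ± 0.12 in chr8A. At the least certain, the adjusted p among these differences was 0.00026 (edgeR).

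Of the 6 largest positive differences by the naming rule, that of Spry4 is given above and 3 rest on few reads in SL2i. Igf2, a paternally expressed growth factor gene, had 38.5 and 45.3 CPM in SL2i, against 189, 168 and 179.6 CPM in SL of clone 1. The chr8A libraries had 2.71 and 3.26 CPM in SL2i, against 237, 212 and 235 CPM in SL. The difference of response was 4.16 ± 0.18, and it is uncertain because 63.2% of its words are shared. Rhox5, an X-linked homeobox gene that DNA methylation is known to silence, had 126 and 115 CPM in SL2i, against 24.3, 21.2 and 21.1 CPM in SL of clone 1. Its level in chr8A was 14.9 and 13.5 CPM in SL2i, against 17, 16.4 and 19.7 CPM in SL. It rose by 2.43 ± 0.068 in clone 1 and stood at -0.32 ± 0.11 in chr8A (adjusted p = 0.0068, edgeR), a difference of 2.75 ± 0.12. The lines lay further apart in SL2i than in SL. Car4 had 17 reads over the SL2i libraries and 3940 reads over the SL libraries of clone 1. In chr8A it had no read over the SL2i libraries and 5894 reads over the SL libraries, and the difference passed (adjusted p = 5.1e-05, edgeR). Krt7, a keratin gene, had 20 reads over the SL2i libraries and 1369 reads over the SL libraries of clone 1. The chr8A libraries had 2 reads over the SL2i libraries and 2334 reads over the SL libraries (adjusted p = 0.00032, edgeR). In these genes, and in Myl9, the SL2i libraries of chr8A were almost without reads. Myl9 had 18 reads over the SL2i libraries and 2071 reads over the SL libraries of clone 1. There were 3 reads over the SL2i libraries and 3342 reads over the SL libraries of chr8A (adjusted p = 0.004, edgeR), a call that ended without SL2i clone 1 replicate 1 or without SL2i chr8A replicate 1. EdgeR gave an adjusted p for Igf2 and Rhox5 of at most 4.6e-16.

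On the negative side, Sp5, a zinc finger gene that Wnt induces, had 17.7 and 18 CPM in SL2i, against 7.35, 5.26 and 5.52 CPM in SL of clone 1. In chr8A it had 26.6 and 27.7 CPM in SL2i, against 2.3, 2.56 and 3.39 CPM in SL. It rose by 1.56 ± 0.14 in clone 1 and by 3.30 ± 0.14 in chr8A, a difference of -1.74 ± 0.20. Cd109, which encodes a membrane-anchored coreceptor of TGF-beta, had 2.32 and 2.83 CPM in SL2i, against 19.8, 20.7 and 22.1 CPM in SL of clone 1. The chr8A libraries had 5.99 and 7.11 CPM in SL2i, against 16, 16.5 and 15.8 CPM in SL, and the responses differed by -1.71 ± 0.24. In both genes the lines differed by more than the libraries of each group did. Cspg4b differed by -1.88 ± 0.11 and Armcx2, an X-linked armadillo repeat gene, by -1.68 ± 0.16. Duxbl1, a double homeobox gene, differed by -1.83 ± 0.26 (96.3% shared), and Rpl10l, a germline ribosomal protein gene, by -1.76 ± 0.13 (24.5% shared). By edgeR, the adjusted p among these 6 was at most 2.3e-08.

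**Figure D5:**
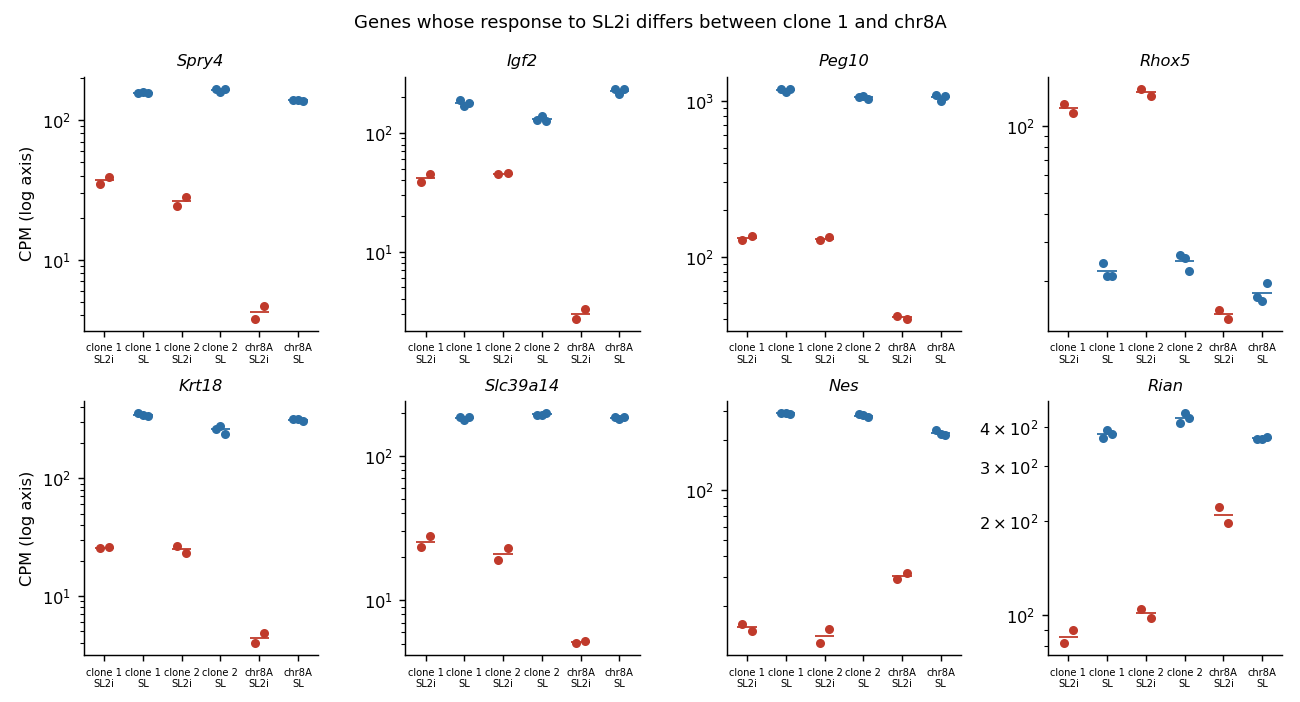
Level of 8 genes in every library of clone 1, clone 2 and chr8A (CPM, log axis), with SL2i in red, SL in blue and lines at the group means. In Spry4, Igf2, Peg10, Krt18, Slc39a14 and Rhox5 the SL2i libraries of chr8A lie below those of both clones, and in Nes and Rian above them, while the SL libraries of the lines lie closer together.

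Few genes passed the test for a different response in clone 2, and a difference that was not called is not shown to be absent. Of the genes called in clone 1, 11306 (90.2%, and 90.1% of the 12550 called in clone 2) were called in both clones, 11301 of them (99.96%) in the same direction. The difference between the clones passed for 80 genes (0.466% of those tested), 32 (0.186%) positive and 48 (0.279%) negative, and 4 of these, all negative, differed by at least 2-fold. At an unadjusted p under 0.05 (edgeR) there were 1701 genes (9.90%), more than that threshold would pass if no gene differed. The count of 80 hung on single libraries: it was 28 without SL2i clone 1 replicate 1, 47 without SL2i clone 1 replicate 2, 53 without SL clone 1 replicate 1 and 47 without SL clone 2 replicate 3. It rose to 153 with only the groups compared and to 130 with the replicate block.

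Plagl1 gave the largest difference. In clone 1 it had 209 and 215 CPM in SL2i, against 21.8, 22.3 and 24.9 CPM in SL. In clone 2 it had 41.2 and 43 CPM in SL2i, against 0.31, 0.13 and 0.359 CPM in SL. The gene was thus close to silent in SL in clone 2 and lower there than in clone 1 in both media. The difference of response was -4.11 ± 0.22 (adjusted p = 1.7e-29, edgeR), and its size rests on 20 reads over the SL libraries of clone 2. Spry4, which set clone 1 apart from chr8A, also differed between the clones. In clone 2 it had 24.2 and 28.2 CPM in SL2i, against 167, 158 and 166 CPM in SL. Its response was -2.08 ± 0.056 in clone 1 and -2.64 ± 0.059 in clone 2, a difference of 0.56 ± 0.091 (adjusted p = 6.1e-05, edgeR) that is small beside the difference from chr8A. Vcan, a matrix proteoglycan gene, differed by 0.43 ± 0.090, Zfp867 by -0.84 ± 0.20, the metalloreductase gene Steap2 by -0.72 ± 0.17, the small heat shock protein gene Cryab by -0.83 ± 0.18 (14.8% shared) and Mir682 by 0.51 ± 0.12 (100% shared). The largest adjusted p among these 5 was 0.023 (edgeR), and each of the 5 calls ended when 1 or more single libraries were left out. Of the ERK output genes, Spry4 and Etv4 (0.39 ± 0.099) differed between the clones, and of the naive genes Esrrb (0.24 ± 0.045), Klf2 (0.22 ± 0.056) and Nr0b1 (0.32 ± 0.077). Each of these calls but that of Spry4 was lost when single libraries were left out, among them SL2i clone 1 replicate 1 for all 4. For Esrrb no other setting lost the call. The Klf2 call was also lost at equal depth and with no filter, and that of Nr0b1 at equal depth.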

How the data were processed

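RNA of mouse ESCs was sequenced from poly(A)-selected libraries, of which the 15 that share one count table (3 lines, 2 media) were used. The authors deposited whole-number counts per gene, and the submitters' processing notes name DRAGEN 3.10, featureCounts of the Subread package and the GRCm39 build, without saying which did what. The annotation, the strand setting and the treatment of reads with several matches were not given in the sources used here. Antisense and overlapping genes can therefore share reads.

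Genes were named by the Entrez identifiers of the table. Genes that passed the low count filter of edgeR (filterByExpr) were fitted in R 4.3.3 with edgeR 4.0.16 (quasi-likelihood test, TMM factors), which rests on limma 3.58.1, in 1 model of all 6 groups of line and medium, so that they share an estimate of the spread. Contrasts were SL2i minus SL in each line, and the response of clone 1 minus that of another line. P values were adjusted by Benjamini-Hochberg over all 17178 genes. The step was tested on simulated data. A group with 3 or fewer reads was given by its reads, with a floor of 3 counts over the group or a ratio with a 95% exact binomial interval that covers counting error only. The percent of shared words is that of the 30-base words of a gene's transcripts (GENCODE M21) found in another gene.

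The rule named Slc16a1, the 8 largest rises and 8 largest falls at a mean of at least 3 log2 CPM, without overlap between media and with a proper symbol, up to 6 called members of each list, and the 6 (chr8A) or 4 (clone 2) largest differences of response in each direction, of which some are not reported here. Members needed for their role were named after their values were seen, as was the choice of 8 genes drawn by library. The gene lists and members were chosen with earlier results of these data known, so the counts over lists are descriptions. List members with 3 or fewer reads in 1 medium could be called in 1 direction only. Beside those named as such, they include Fosl1, Osmr, Slc16a7, Fgf21, Adm and Nmnat3. Alternatives were DESeq2 1.42.0, RLE factors, other filters, equal depth, only the groups compared, a replicate block, genes with few shared words (for the differences of response an alternative chosen after seeing the data) and leaving out each library.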

Additional observations from a re-analysis of the deposited data

Results flagged for a closer look

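The response to SL2i differed between clone 1 and chr8A by a test of the difference itself (edgeR, adjusted over all genes) for the genes named by size. In these the response of clone 1 was the higher one for Igf2 (a difference of log2 fold changes of 4.16, with 63.2% of words shared), Spry4 (2.96) and Rhox5 (2.75), and for Car4 (adjusted p 5.1e-05, edgeR), Krt7 (0.00032) and Myl9 (0.004), whose sizes rest on few reads in SL2i. It was the lower one for Cspg4b (-1.88), Duxbl1 (-1.83, 96.3% shared), Rpl10l (-1.76, 24.5% shared), Sp5 (-1.74), Cd109 (-1.71) and Armcx2 (-1.68).

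Between clone 1 and clone 2 the same test gave a higher response in clone 1 for Spry4 (0.56), Mir682 (0.51, 100% shared) and Vcan (0.43). It gave a lower one for Plagl1 (-4.11), Zfp867 (-0.84), Cryab (-0.83, 14.8% shared) and Steap2 (-0.72). Of these 7, the calls of Spry4 and Plagl1 remained when any single library was left out.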

How the results depend on the processing

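The 12540 calls between media in clone 1 ranged from 11401 to 12168 when 1 library was left out and numbered 11987 with DESeq2, 11739 at equal depth and 12492 with the replicate number as a block. The 2925 differences from chr8A ranged from 2010 to 2822 without 1 library, with 2363 in DESeq2 and 3112 with the block. The 80 differences from clone 2 numbered 153 with only the groups compared and 130 with the block, and 28 to 87 without 1 library. The cause was not tested. Among genes under 5% of shared words, 8002 of 10458 were called between media, 3528 higher and 4474 lower. Deviations from the group mean were compared over 9925 genes. Same-numbered SL2i and SL libraries of clone 1 correlated at 0.0301 (replicate 1) and 0.00473 (replicate 2). With 2 SL2i libraries these deviations are equal and opposite, so the values cannot decide whether replicate numbers pair libraries. Of 3527 values of 296 genes followed between media, 31 lost their call, 3 gained one (Hk2) and 0 reversed. For the differences from chr8A 12 of 663 values (39 genes) lost their call, and for those from clone 2 43 of 200 (12 genes). SL2i libraries held 9784408 to 10908368 counts, which limits genes of few reads most.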
